A study of Psammomys obesus with 8 samples.

Results

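In the hypothalamus of the fat sand rat, 212 of 548060 counted stretches of methylated DNA were nearly absent from some libraries while well covered in others, and they were followed here library by library. They were chosen by their counts and their sequence. Each had 3 or fewer reads in at least 1 of the 8 libraries and 30 or more in at least 1 other, and was no tandem repeat. A stretch was taken as a tandem repeat when, at some shift of 1 to 60 bases, 50% or more of its bases matched the base that many places on. In the table as a whole, 199567 contigs without such a repeat reached 30 counts in some library, and 158 tandem contigs met the same 2 count limits. The low and high counts of the members are therefore given as a description, with no test.

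The libraries came from male *Psammomys obesus*, a gerbil that grows obese and diabetic on rich food, aged 16 weeks. MethylMiner, in which a methyl-CpG binding protein domain holds on to methylated double-stranded fragments, enriched the DNA before sequencing, and reads were counted over assembled contigs. The 4 low-low libraries bear the group title Low-Low lipid and the diet entry Low lipid, and the 4 standard-low libraries the title Standard-Low lipid and the diet entry Standard Lipid. The deposited description speaks of the diets of fathers and the series title of those of parents, and the labels do not say which generation each word of a title describes. All 8 share the tissue, the sex, the age and the capture, and no unenriched library was analysed here. Totals ran from 11646180 to 13533441 reads per library, and the lowest sum over the 8 libraries for any contig was 81 reads.

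Animals of 1 species differ in more than single bases. Segments can be missing, inserted or duplicated, gene families that arose by repeated duplication often differ in copy number, and repeats such as satellites and transposable elements occupy different places in different individuals. An assembler that meets 2 versions of a segment can write them as 2 separate contigs, each gathering the reads of its own version. A capture count rises with the amount of a sequence and with its methylation. With these libraries the amount and the methylation cannot be told apart.

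A few members formed pairs with a near-identical contig, and their sequences are shown because the contigs of a pair can be compared base by base beside their counts. In the table, 112 pairs of contigs had identical bases over the first 50 and over the last 50 positions, read on either strand. Of these pairs, 3 held a member, with 4 members among 6 contigs. Thus 4 of 212 members (1.89%) shared both ends with 1 other contig, against 196 of all 548060 contigs (0.0358%). These 196 are fewer than the contigs held by the 112 pairs, so the share for all contigs is approximate. The sequences are written 5′ to 3′ on the strand of the first contig of each pair, and capitals mark the bases that differ or that are in 1 of the pair alone.
4250420: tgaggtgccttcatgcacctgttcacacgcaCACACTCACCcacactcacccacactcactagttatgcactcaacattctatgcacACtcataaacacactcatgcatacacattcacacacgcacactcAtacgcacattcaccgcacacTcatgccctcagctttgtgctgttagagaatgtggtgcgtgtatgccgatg
2588615: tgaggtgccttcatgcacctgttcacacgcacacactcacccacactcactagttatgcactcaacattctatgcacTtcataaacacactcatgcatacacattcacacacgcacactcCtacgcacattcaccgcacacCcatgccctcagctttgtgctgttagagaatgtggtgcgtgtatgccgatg
2409565: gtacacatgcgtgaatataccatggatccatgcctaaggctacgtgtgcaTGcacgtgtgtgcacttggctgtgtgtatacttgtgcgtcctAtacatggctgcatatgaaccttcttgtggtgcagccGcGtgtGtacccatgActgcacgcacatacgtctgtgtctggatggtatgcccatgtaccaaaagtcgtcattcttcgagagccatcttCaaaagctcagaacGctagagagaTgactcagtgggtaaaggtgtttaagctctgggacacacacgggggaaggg
3240491: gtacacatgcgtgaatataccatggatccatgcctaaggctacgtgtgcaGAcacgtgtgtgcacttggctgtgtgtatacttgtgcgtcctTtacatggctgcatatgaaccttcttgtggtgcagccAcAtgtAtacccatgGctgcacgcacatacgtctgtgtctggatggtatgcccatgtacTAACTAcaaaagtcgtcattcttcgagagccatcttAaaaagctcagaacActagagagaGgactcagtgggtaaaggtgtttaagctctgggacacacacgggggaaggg
4066727: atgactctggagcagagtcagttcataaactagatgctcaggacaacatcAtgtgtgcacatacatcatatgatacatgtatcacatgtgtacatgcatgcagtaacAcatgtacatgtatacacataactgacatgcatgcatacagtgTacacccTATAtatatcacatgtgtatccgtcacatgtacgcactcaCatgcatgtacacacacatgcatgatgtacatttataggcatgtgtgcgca
1816218: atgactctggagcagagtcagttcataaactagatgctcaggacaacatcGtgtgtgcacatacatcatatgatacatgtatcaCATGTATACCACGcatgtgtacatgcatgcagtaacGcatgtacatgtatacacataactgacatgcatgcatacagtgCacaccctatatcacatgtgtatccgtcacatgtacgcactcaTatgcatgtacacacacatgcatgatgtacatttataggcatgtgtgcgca
Contigs 4250420 and 2588615 matched at 98.4% of 192 paired bases, with 3 mismatches and 11 bases in 4250420 alone. Both were members. The mismatches, counted from the 5′ base of 4250420 as 1, were C89T, A132C and T153C, and both contigs held the same 6 CpG. Contigs 2409565 and 3240491 matched at 96.6% of 293 bases, with 10 mismatches, and held 12 and 9 CpG. Contigs 4066727 and 1816218 matched at 98.4% of 244 bases, with the 4 mismatches A51G, A108G, T151C and C198T, and held 3 and 6 CpG. None of these 6 contigs had a mouse match in the table.

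Counts of the 2 contigs of a pair ran opposite to each other across the libraries. In the order of libraries 1 to 4, contig 4250420 had low-low counts of 35, 24, 2 and 3, and standard-low counts of 0, 1, 6 and 16. All later values follow this order, with the low-low libraries first. Contig 2588615 had 0, 1, 18 and 35 counts in the low-low libraries and 19, 18, 11 and 15 in the standard-low libraries. The first contig alone was covered in low-low 1 and 2, the second in low-low 3 and 4 and standard-low 1 and 2, and both in standard-low 3 and 4, so each group held libraries of more than 1 kind. The sum of the 2 stayed between 17 and 38 counts in every library.

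Contig 2409565 had 17, 34, 40 and 23 counts in the low-low libraries and 8, 17, 8 and 1 in the standard-low libraries. Its counterpart 3240491 had 16, 0, 0 and 9 and then 10, 14, 11 and 25. Low-low 2 and 3 held the first contig alone, standard-low 4 nearly only the second, and the other 5 libraries held both, with sums from 18 to 40.

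For 4066727 the low-low counts were 27, 3, 8 and 31 and the standard-low counts 2, 6, 5 and 13. For 1816218 they were 1, 24, 23 and 1, and then 23, 20, 20 and 27. The contig 4066727 stood nearly alone in low-low 1 and 4, whereas 1816218 was the larger in the other 6 libraries, and the sums ran from 25 to 40. In all 3 pairs the highest sum over the lowest was smaller than the same ratio for either contig. The rule itself makes this ratio large for a member, so the comparison is a description only. Of the 109 pairs with shared ends that held no member, 76 had a sum that was evener than either contig. In 9 of the 109, whether the sum was evener or not, 1 contig was at 3 or fewer counts in a library where the other had 10 or more.

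**Figure D1:**
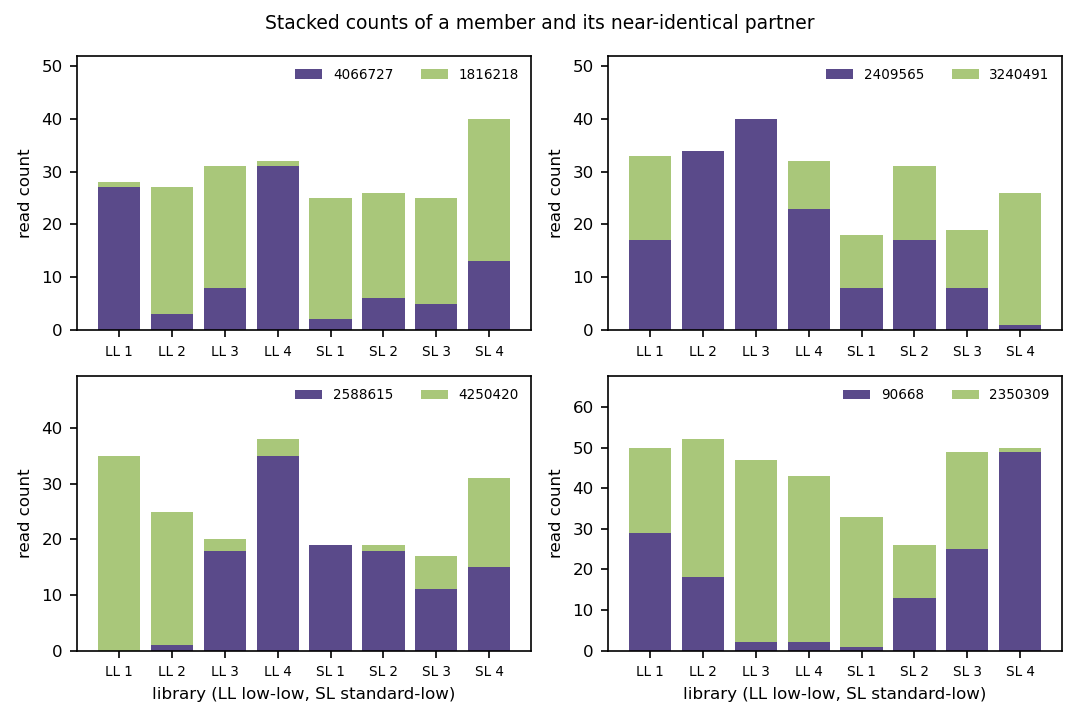
Read counts (vertical axis) of 4 members (purple) and their near-identical partner contigs (green), stacked by library (LL low-low, SL standard-low). The height shifts from purple to green between libraries of the same group; the stacks of 4250420 and 2588615 stay between 17 and 38 counts.

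A wider search gave the same kind of neighbour in sequence for more members. A partner was defined as another contig with at least 90% identity over at least 80% of the member, and 43 members had one. Of these members, 26 belong to a family of short contigs with repeated sequence described further on. Partners were on average higher in the libraries where the member was low than in the others for 27 of the 43 members, and for 10 of the 17 outside that family. Some of these differences were small, as 144 against 142 counts for the partner of 4488214. The pair 4250420 and 2588615 counts in both directions. How many partners would be higher without any relation to the member was not computed. Most partners were present everywhere: 33 stayed above 3 counts in all 8 libraries, and 7 were at 3 or fewer where the member was highest. One further pair with opposite counts was 90668 with 29, 18, 2 and 2 and then 1, 13, 25 and 49 counts, beside 2350309 with 21, 34, 45 and 41 and then 32, 13, 24 and 1. These 2 contigs matched at 97.0% of 428 bases, were chosen after their values were seen, and summed to between 26 and 52 counts.

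Where a member and its partner differed was not even along the contig. In 36 of the 43 pairs a mismatch lay at base 51 from an end of the member, and in 26 of these at base 51 from both ends, which is 1 and the same base in a contig of 101 bases. The next most frequent position, base 49 from an end, held a mismatch in 11 pairs. Contigs of exactly 101 bases made up 25 of the 212 members (11.8%) and 6118 of all contigs (1.12%). An end of 50 bases was shared exactly with another contig by 17 members (8.02%) and by 2.07% of all contigs.

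Near absence fell on single libraries for most members, though not for those with the highest counts. Of the 212 members, 145 (68.4%) were at 3 or fewer counts in 1 library, 38 in 2, 11 in 3, 10 in 4, 3 in 5, 2 in 6 and 3 in 7 libraries. Without standard-low 2 the number low in 1 library was 88, and with counts scaled to equal depth it was 87 of 140. Among the 30 members that reached 50 counts, 9 were low in 1 library, so that most of the strongly covered members were low in several. There were 46 distinct patterns of low and covered libraries. No member was at 3 or fewer counts in all 4 libraries of one group and above 3 in all 4 of the other. With the limit for tandem repeats at 60%, 2 contigs would have been, and with the repeat share taken over the whole contig length, 6. Low counts fell only in low-low libraries for 70 members, only in standard-low libraries for 101 and in both groups for 41. Of the 101, 42 were low in standard-low 2 alone. The limits apply to raw counts, and every standard-low library had a lower total than every low-low library. The highest standard-low total was 12156525 reads and the lowest low-low total 12528388. The part of depth in the split of 70 against 101 was not tested. Among the 67 members that were low in 2 or more libraries, 16 were low within the low-low group only, 10 within the standard-low group only and 41 across both.

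**Figure D2:**
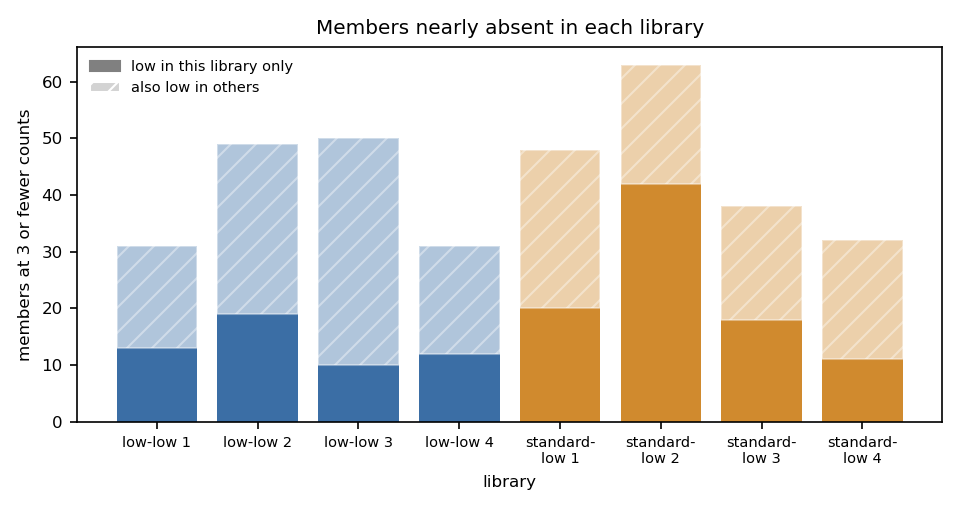
Number of members at 3 or fewer counts in each library (vertical axis), divided into those low in that library alone (solid) and those also low in others (hatched), with low-low in blue and standard-low in orange. Standard-low 2 has the tallest column, 63 members with 42 low in it alone.

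Pairs of libraries of the same group shared a median of 9 low members over 12 pairs, with a range of 5 to 24, and pairs from different groups a median of 8 over 16 pairs, with a range of 2 to 18. Low-low 2 and 3 shared the most, 24 of the 75 members low in either (32.0%), followed by low-low 3 and standard-low 1, which shared 18 of 80 (22.5%). The fewest, 2, were shared by low-low 2 and standard-low 4. In the table as a whole, 1 contig had 10 or more counts in all 4 low-low libraries and 4 or fewer in all 4 standard-low ones, and 7 contigs showed the opposite. All 8 of these were tandem repeats and thus no members.

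**Figure D3:**
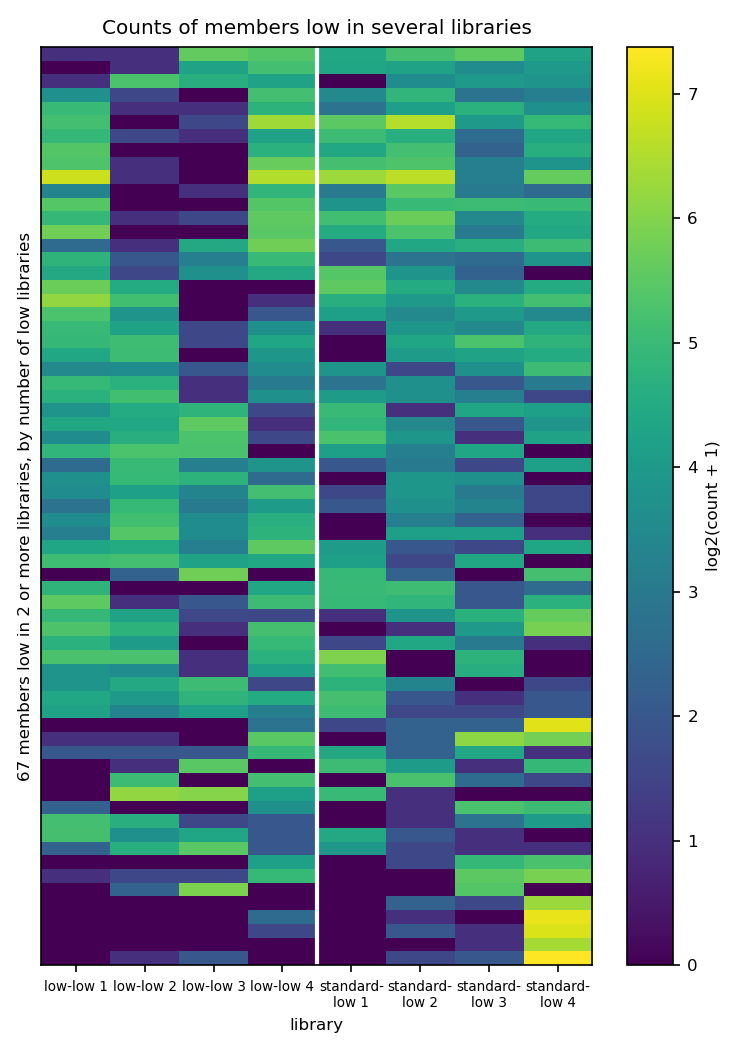
Counts of the 67 members at 3 or fewer counts in 2 or more libraries (rows, ordered by the number of low libraries), shown by colour as log2(count + 1) in each library (columns); the white line separates low-low from standard-low. Low counts fall on both sides of the line in 41 rows, and no row is dark on the whole of one side and bright on the whole of the other.

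Many members sit close to the limits that chose them. The highest count was exactly 30 in 38 members and the lowest exactly 3 in 76, with a median highest count of 34, and 17 members reached 60. Contig 190830 was just inside with 3 counts in low-low 4 and 30 in low-low 2, and 190875 with 3 in low-low 1 and 30 in standard-low 2. Just outside were contig 1375, with a lowest count of 4 and a highest of 30, and contig 3254, with 3 and 29. In all, 140 contigs had a lowest count of 4 with 30 or more elsewhere, and 50 a highest count of 29. A count of 3 has an exact two-sided Poisson 95% upper limit of 8.77, which covers counting error only since the reads carry no molecular identifiers.

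A clear step, in which each library had either at most 3 or at least 10 counts, was seen in 89 members. Of these, 58 were low in 1 library and 31 in several. Standard-low 2 was the low library for 30 of the 58, and each of the other 7 libraries for 3 to 6. A count of 0 occurred in at least 1 library for 60 members.

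Members with a clear step in several libraries included a T cell receptor segment. Contig 2911950 matched the mouse variable segment Trav9d-1 at chr14:52792385-52792801. Such segments are joined to others when T cells assemble the alpha chain of their receptor, and they stand in a tandem array of close copies. Its last 300 of 417 bases are shown, with CpG in capitals, since it had the highest single count, 58, of the members inside a gene.
2911950: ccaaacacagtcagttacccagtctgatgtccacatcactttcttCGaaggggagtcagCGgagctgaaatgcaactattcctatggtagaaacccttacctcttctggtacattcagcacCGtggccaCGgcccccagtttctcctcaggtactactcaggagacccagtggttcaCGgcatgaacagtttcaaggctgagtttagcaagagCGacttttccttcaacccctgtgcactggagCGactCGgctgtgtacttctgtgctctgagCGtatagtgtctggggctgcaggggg
Its low-low counts were 1, 2, 2 and 30 and its standard-low counts 0, 0, 45 and 58. Coverage was found in library 4 of the low-low group and in libraries 3 and 4 of the standard-low group, and the other 5 were nearly empty, so both groups held both states and overlapped.

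Just 4 contigs of the table had 10 or more counts in these 3 libraries and 4 or fewer in the other 5, and all 4 were members. Contig 658088 had 1, 1, 0 and 44 and then 0, 4, 68 and 56 counts. Contig 118993 had 0, 0, 0 and 17 and then 0, 2, 29 and 37, and contig 1166222 had 4, 0, 0 and 12 and then 0, 1, 37 and 32. In all 4 contigs low-low 4 had the lowest count of the 3 covered libraries. The 4 differ in kind: 658088 shared at least 80 bases at 80% identity or more with 653 other contigs, 1166222 with 145, 118993 with 2 and Trav9d-1 with 3. A partner of 118993, contig 1262394, matched it at 93.7% of 206 bases and was covered in every library, with 13 to 31 counts. These contigs other than Trav9d-1 had no mouse match and were chosen after their values were seen.

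Cytochrome P450 genes of the Cyp2 family, which oxidise steroids and foreign compounds and lie in clusters of close copies, held 2 members. Contig 430536 matched Cyp2a5 at chr7:26836512-26836849, and its last 300 of 515 bases are shown, with CpG in capitals, because its counts stepped between 0 and 54.
430536: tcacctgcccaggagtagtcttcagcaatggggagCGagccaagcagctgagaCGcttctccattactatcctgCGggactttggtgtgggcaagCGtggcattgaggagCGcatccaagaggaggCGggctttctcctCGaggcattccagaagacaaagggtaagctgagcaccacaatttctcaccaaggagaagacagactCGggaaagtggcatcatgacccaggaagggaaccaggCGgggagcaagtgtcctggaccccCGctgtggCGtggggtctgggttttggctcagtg
Its counts were 0, 4, 54 and 0 in the low-low libraries and 30, 4, 0 and 36 in the standard-low libraries. Low-low 3, standard-low 1 and standard-low 4 were high and the other 5 were at 4 or fewer, with both states in each group. Contig 1190531 matched Cyp2b9, 648888 bases away on mouse chromosome 7, and had 9, 8, 37 and 14 and then 21, 7, 2 and 17 counts. That contig was at 3 or fewer in standard-low 3 alone.

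Contig 2372459, without a mouse match and chosen after its values were seen, was covered in the same 3 libraries as Cyp2a5 and in 1 more. Its counts were 0, 1, 44 and 0 and then 32, 16, 1 and 29. Other members with steps across both groups were seen in repeats. Contig 740238, which shared sequence with 4155 other contigs, had 0, 4, 59 and 0 and then 0, 0, 41 and 0 counts, so that low-low 3 and standard-low 3 alone were high.

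Wipf1, which encodes a partner of the WASP family of actin regulators, gave a step within one group. Contig 2291098, matched at chr2:73483496-73484225, had 1, 1, 48 and 41 counts in the low-low libraries and 20, 36, 46 and 18 in the standard-low libraries. Low-low 1 and 2 were nearly empty, and low-low 3 and 4 lay within or above the standard-low range. No other contig of the table shared 80 bases at 80% identity with it.

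**Figure D4:**
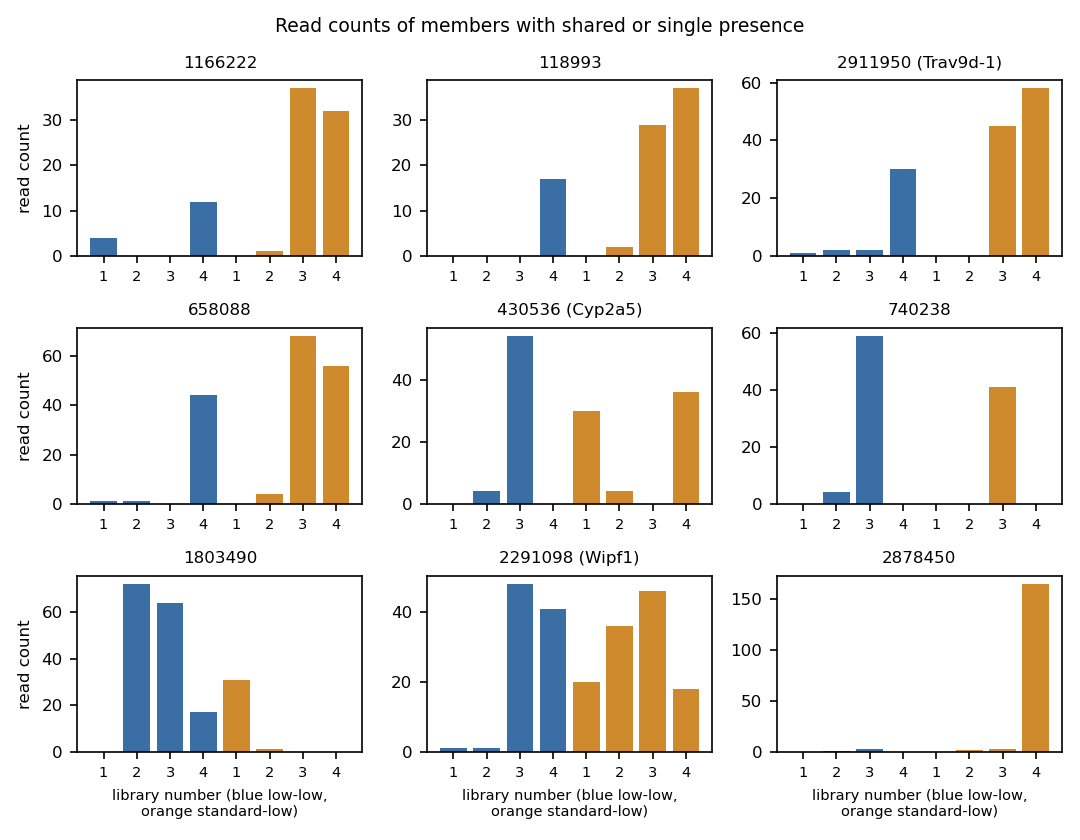
Read counts (vertical axis) of 9 members in the 4 low-low (blue) and 4 standard-low (orange) libraries. The top row and 658088 are high in low-low 4 and standard-low 3 and 4, 2291098 is low in low-low 1 and 2 alone, and 2878450 reaches 165 counts in standard-low 4 against at most 3 elsewhere.

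Gene families known for many close copies were looked up, beside a share of members of 0.0387% among all contigs. At that share the counts below are too small to compare a family with the table. Contigs inside Ugt, Cyp2, Cyp3, Cyp4, Sult or Gst genes numbered 249, with 2 members. Zinc finger genes named Zfp held 1447 contigs and 1 member, inside Zfp629, and immune receptor segments held 29 contigs and 1 member. None of the 546 contigs in chemosensory receptor genes, of 28 in MHC genes or of 238 in protocadherins was a member. None of the 305 contigs inside 26 marker genes of brain, pituitary and blood cell types was one.

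Dlgap1, a scaffold protein of excitatory synapses, and Cdc42bpa, a kinase that acts downstream of the small GTPase CDC42, each held a member low in 1 library. Contig 3522046, at chr17:70660273-70660388 in Dlgap1, had 46, 23, 32 and 44 counts and then 0, 23, 40 and 30. Standard-low 1 alone was empty. Contig 1456165, at chr1:180013829-180014040 in Cdc42bpa, had 52, 48, 43 and 3 and then 19, 39, 23 and 19 counts, with low-low 4 alone low. Contig 563506 in Nt5c3, a pyrimidine nucleotidase, had 11, 24, 38 and 2 and then 37, 14, 1 and 18 counts. Its low libraries, low-low 4 and standard-low 3, came from different groups.

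For some members, the contigs beside them on the mouse genome could be followed. A mouse match of at least 50 bases was held by 45 members, and 34 of them had other contigs matched within 5 kb on either side. In the libraries where the member was low, its level was a median 0.145 of that in the other libraries, a value the rule itself keeps low, and the summed level of its neighbours was a median 0.878, with a range of 0.429 to 1.15. For Dlgap1 the neighbour ratio was 1.13 and for Cdc42bpa 1.08, over 3 neighbours each. Ratios under 0.5 came from 2 members, 190830 and 1238418, with 1 neighbour each. The order of these stretches in the sand rat is not known from the table.

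Standard-low 2 stood apart from the other libraries by the number of members low in it alone, and by their base composition. It had 42 such members, whereas the other 7 libraries had 10 to 20 each. The 42 had a median GC content of 56.1%, against 47.5% for all members and 48.4% for all contigs, and 20 of them had a mouse match, 17 of them inside a gene. Of the 42, 27 were at exactly 3 counts. Over the whole table, contigs with a GC content above 60% took 0.778 of their mean share of reads in standard-low 2, the lowest of the 8 libraries, against 0.869 in standard-low 4 and 1.15 in standard-low 3. For contigs above 50% and up to 60%, where the median of the 42 lies, standard-low 2 was again lowest, at a milder 0.923. The part of this shift in the members low in standard-low 2 alone was not tested.

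Fzr1, which activates the anaphase-promoting complex, is an example. Contig 3789098, with a GC content of 67.6%, had 27, 27, 37 and 34 counts in the low-low libraries and 20, 3, 31 and 20 in the standard-low libraries. Standard-low 2 lay far below the rest, and 4 neighbouring contigs together stood in it at 0.579 of their level in the other libraries. Pde4dip, an anchor protein for a phosphodiesterase, held contig 3444698, with 25, 34, 22 and 19 and then 40, 3, 4 and 16 counts. Standard-low 2 alone was at 3 or fewer there, with standard-low 3 just above at 4. The neighbour ratio, for standard-low 2 against all other libraries, was 0.975.

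**Figure D5:**
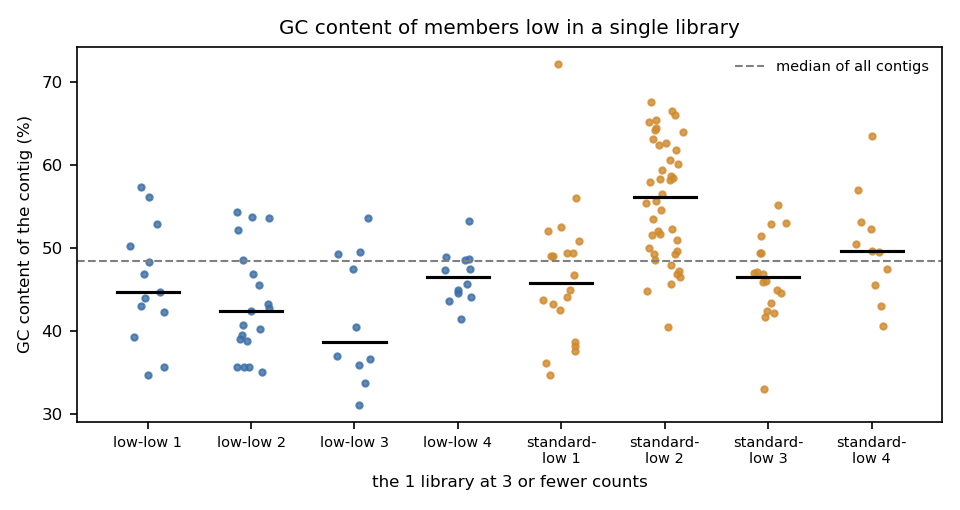
GC content in percent (vertical axis) of each member at 3 or fewer counts in a single library, grouped by that library; black lines are medians and the dashed line is the median of all contigs, 48.4%. The 42 members low in standard-low 2 alone have a median of 56.1%, above the medians for the other 7 libraries.

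Standard-low 4 held contigs that were nearly absent everywhere else. Just 3 members were above 3 counts in 1 library alone, and that library was standard-low 4 for all 3. Contig 2878450 had 0, 1, 3 and 0 counts in the low-low libraries and 0, 2, 3 and 165 in the standard-low libraries. Contig 1785408 had 0, 0, 0 and 2 and then 0, 3, 1 and 123, and contig 2249207 had 0, 0, 0 and 0 and then 0, 0, 1 and 83. Contigs 4005292, 2448232 and 3717260, chosen after their values were seen, had 130, 139 and 76 counts in standard-low 4 and at most 6 in any other library. Contig 2878450 had a mouse match, at chr1:60963877-60964352 and 13575 bases from Icos, whereas 1785408, 2249207 and 2448232 had none. Whether these 6 contigs are sand rat DNA or that of another organism was not tested, and their sequences are not shown. The groups overlapped in all 6, because standard-low 1 to 3 lay in the range of the low-low libraries or within 4 counts of it. These were the members with all 4 low-low libraries at 3 or fewer counts in 4 cases, and no member was low in all 4 standard-low libraries.

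A family of short contigs with repeated sequence made up a further share. By similarity to one another (at least 80 bases at 80% identity), 49 members fell into 9 families, and the largest had 28 members of 100 to 147 bases. Its median GC content was 38.3%, and the observed over expected frequency of CpG was 1.03, against 0.383 for all contigs. None of the 28 had a mouse match. Contigs related to them outside the set were 100 to 2981 bases long, and the length of the repeated unit was not measured. Tandem structure at shifts above 60 bases was not looked for. Each of the 28 shared sequence with 210 to 917 contigs of the table. One of them, 4093749, is shown beside its partner 4007297, with the 10 differing bases of the paired stretch in capitals, to show how near the copies are.
4093749: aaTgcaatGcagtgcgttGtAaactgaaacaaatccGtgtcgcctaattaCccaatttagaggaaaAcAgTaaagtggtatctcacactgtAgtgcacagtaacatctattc
4007297: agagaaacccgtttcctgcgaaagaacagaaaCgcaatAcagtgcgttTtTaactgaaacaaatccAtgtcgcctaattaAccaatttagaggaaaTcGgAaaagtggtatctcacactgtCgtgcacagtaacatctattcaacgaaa
Contig 4093749 had 112, 1, 0 and 91 counts in the low-low libraries and 77, 99, 8 and 49 in the standard-low libraries. Low-low 2 and 3 were nearly empty and standard-low 3 had 8 counts, and the groups overlapped. Its partner had 49, 60, 36 and 35 and then 34, 35, 41 and 44 counts, so that it was covered in every library.

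Other members of the family behaved alike in part. Contig 1771251 had 111, 7, 2 and 101 and then 87, 90, 11 and 42 counts, and contig 4488214 had 81, 1, 4 and 50 and then 57, 98, 17 and 17. Both were lowest in low-low 2 and 3. The next lowest count was 11 in standard-low 3 for 1771251, and 17 in both standard-low 3 and 4 for 4488214. Contig 1803490, in contrast, had 0, 72, 64 and 17 and then 31, 1, 0 and 0 counts. It was covered in low-low 2 and 3, where 1771251 and 4488214 were lowest, but not in standard-low 3. Contig 687816 had 8, 42, 11 and 26 and then 0, 17, 17 and 1, and contig 997043 had 3, 3, 3 and 30 and then 21, 4, 20 and 1. The family thus held 12 patterns of low libraries, and the most frequent was low-low 2 with low-low 3, in 11 of the 28.

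Of the 28, 15 were at 3 or fewer counts in low-low 2, 18 in low-low 3 and 14 in both, and all 11 members of the whole set that were low in exactly these 2 libraries belonged to the family. Summed over the family, CPM were 67.0, 37.3, 18.5 and 80.7 in the low-low libraries and 51.9, 86.3, 35.6 and 37.2 in the standard-low libraries. The low-low libraries held both the lowest and the second highest sum, and the groups overlapped. The 1613 related contigs outside the set summed to between 2965 and 3944 CPM in every library. The 28, chosen for their low counts, ranged over 18.5 to 86.3.

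Compared with all contigs, members were shorter, with a median length of 335 against 442 bases, and 49 of them (23.1%) had at most 150 bases, against 2.58%. Their CpG observed over expected was 0.463, against 0.383. A mouse match was held by 51 members (24.1%), against 38.0% of all contigs, and 33 (15.6%) lay inside a mouse gene, against 22.8%. Contigs without a tandem repeat that reached 30 counts in a library had a median length of 648 bases, with 1.01% of at most 150. Their CpG observed over expected was 0.395, 47.9% had a mouse match and 30.6% lay inside a mouse gene. The largest repeat family held 28 of the 49 members of at most 150 bases. One member matched the mouse X chromosome and none the Y. Sequence shared with no other contig was the state of 111 members, 50 shared with 1 to 20 contigs, 4 with 21 to 100 and 47 with more than 100.

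The groups themselves were compared with edgeR's quasi-likelihood test over all 548060 contigs, with Benjamini-Hochberg adjustment. It called 147 contigs, 0.0268% of the table, and 18 members. In standard-low, 13 members were called higher, against 0.0203% of all contigs, and 5 lower, against 0.00657%. The rule picked contigs that vary strongly between libraries in the same counts, and nothing is read from the members' share. In either direction 5.68% of all contigs had an unadjusted p below 0.05. In CPM, the groups did not overlap in 3.24% of all contigs and in 14 members (6.60%), 6 higher and 8 lower in standard-low. The labels do not say that the 4 libraries of a group came from separate animals, so that these p-values measure the spread between libraries only, which may be technical. Of the 13 members called higher, 6 were the contigs of untested origin covered in standard-low 4 and nearly absent elsewhere. Among these, 3717260 and 4005292 are near copies of each other. Without standard-low 4 the test called 5 members in all. Without low-low 2 it called 9.

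Among the called members whose groups did not overlap in CPM, 7 were named by rule. Their values are a description, since the same counts chose them. Contig 3521417, without a mouse match or a related contig, had 10, 6, 13 and 3 counts in the low-low libraries and 23, 46, 27 and 27 in the standard-low libraries. Each standard-low library was above each low-low library, at 2.59 ± 0.87 against 0.621 ± 0.357 CPM (counts scaled to equal library size, SD, n = 4 each). The log2 difference was 2.06 ± 0.31 (SE), with an adjusted p of 3.08e-05 by edgeR. Its last 300 of 351 bases are shown as the member with the smallest adjusted p, with CpG in capitals.
3521417: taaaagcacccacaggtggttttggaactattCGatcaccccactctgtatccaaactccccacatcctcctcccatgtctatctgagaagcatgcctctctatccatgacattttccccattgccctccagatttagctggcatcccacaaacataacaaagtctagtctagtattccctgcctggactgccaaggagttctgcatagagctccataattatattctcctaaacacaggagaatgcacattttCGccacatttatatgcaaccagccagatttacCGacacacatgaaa

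Kcnj4 encodes an inwardly rectifying potassium channel of neurons, and its contig is shown because it was the called member inside a gene, at chr15:79484606-79484890 of the mouse match. All 293 bases are given, with CpG in capitals.
1972681: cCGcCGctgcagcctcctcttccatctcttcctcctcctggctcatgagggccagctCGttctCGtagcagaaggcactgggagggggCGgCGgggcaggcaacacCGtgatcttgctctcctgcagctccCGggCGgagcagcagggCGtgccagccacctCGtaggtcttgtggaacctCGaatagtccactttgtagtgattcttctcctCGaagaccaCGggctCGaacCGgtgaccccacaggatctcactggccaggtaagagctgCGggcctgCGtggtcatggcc
Contig 1972681 had 15, 19, 21 and 36 counts in the low-low libraries and 5, 5, 11 and 3 in the standard-low libraries. Each low-low library was above each standard-low one, with a log2 difference of -1.77 ± 0.35 (SE) and an adjusted p of 0.0127 by edgeR. Its GC content was 63.5%. In standard-low 4, where the member was low, the 4 neighbouring contigs together stood at 0.823 of their level in the other libraries. Summed, these neighbours had low-low counts of 66, 60, 82 and 60 and standard-low counts of 69, 65, 90 and 55. Their groups overlapped, so they did not share the member's difference between the groups. Without low-low 4 the adjusted p of 1972681 was 0.408, and over all alternatives it ranged from 0.00157 to 0.821.

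Contig 4141235 had 11, 34, 11 and 24 counts and then 0, 8, 4 and 0, with 2 standard-low libraries at 0. Contig 4533618 had 24, 26, 23 and 30 and then 9, 1, 11 and 11, the tightest low-low values of the 7. The log2 differences were -2.55 ± 0.46 with an adjusted p of 0.00223, and -1.54 ± 0.32 with an adjusted p of 0.0270, both by edgeR.

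Contig 274189 had 18, 1, 7 and 6 counts and then 22, 31, 21 and 18. Contig 786669 had 15, 5, 2 and 10 and then 31, 15, 19 and 24, and contig 3816783 had 13, 16, 0 and 14 and then 27, 43, 19 and 29. In these 3 the near absence was that of 1 low-low library, while the standard-low libraries stayed at 15 counts or more. The lowest standard-low count equalled low-low 1 in 274189, at 18, and in 786669, at 15. The groups of 274189 and 786669 were thus apart in CPM but not in raw counts, whereas those of 3816783 were apart in both. The log2 differences of the 3 contigs were 1.64 ± 0.34, 1.60 ± 0.34 and 1.58 ± 0.31, with adjusted p of 0.0270, 0.0320 and 0.0117 by edgeR. None of 4141235, 4533618, 274189, 786669 and 3816783 had a mouse match. Of the 7, 3521417 alone kept its call in all 13 alternatives run for it, with log2 differences from 1.79 to 2.41. The other 6 each lost it in 5 to 7 alternatives, with limma voom and DESeq2 and without single libraries.

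Of the 8 contigs named because they were low in 1 library and best covered in the other 7, 1 had groups that did not overlap. Contig 4194028 had 60, 38, 48 and 33 and then 66, 40, 20 and 3 counts, and contig 1648849 had 46, 3, 33 and 40 and then 38, 46, 14 and 8. Standard-low 4 and low-low 2 were low in turn, with adjusted p of 0.934 and 0.993 by edgeR. Contig 3655413 of the repeat family had 46, 101, 48 and 84 and then 3, 51, 37 and 8, and was called lower in standard-low with an adjusted p of 0.00698 by edgeR, although standard-low 2 lay above 2 low-low libraries. Contig 500861, with 36, 20, 1 and 32 and then 48, 36, 42 and 33 counts, was not called at an adjusted p of 0.412 by edgeR, and its groups did not overlap in CPM. The contig 2409565, one of the pair shown above, was called lower in standard-low at an adjusted p of 0.0206 by edgeR, with standard-low 2 at the count of low-low 1.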

How the data were processed

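The deposited table held whole-number read counts per assembled contig for 8 MethylMiner libraries, with the contig's sequence and, for some, a mouse match and gene. FastQC and BWA are named in the submitters' processing notes. Not given in the sources used here are their versions, the assembler, the treatment of reads with several places and the mouse build, so coordinates are the table's own. The header names libraries by spaces over tab-separated values and was read in order. Gene names are those of the mouse matches. How repeat reads were placed can move counts between near-identical contigs.

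Members were found from the raw counts and sequences. Members, lists and alternatives were chosen with earlier results of these data known. Standard-low was compared with low-low in edgeR 4.0.16 (R 4.3.3; TMM factors, glmQLFit, two-sided glmQLFTest, Benjamini-Hochberg over 548060 contigs, threshold 0.05). A filter at a mean of 10 counts removed 0 contigs. The test was checked on simulated counts. CPM are counts over the library total times its TMM factor; sums over the repeat family use the total alone. Partners and related contigs came from BLAST 2.17.0 (e-value 1e-08) and were aligned with Biopython 1.88. The shared-end search was added after seeing the data.

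Contigs named by rule were the called members without overlap of the groups, up to 8; the 8 low in 1 library with the highest median elsewhere; up to 8 above 3 counts in 1 library alone; up to 10 inside a gene, by highest count; and the 6 with the highest mean count of a member and its partner. Near-identical contigs count once within each part. Alternatives were another normalization, limma voom 3.58.1, DESeq2 1.42.0, other filters, the replicate number as a block, other count and repeat limits, counts scaled to equal depth and leaving out each library.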

Additional observations from a re-analysis of the deposited data

Results flagged for a closer look

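Within a group of 4 libraries, 1 value stood apart from the other 3 by more than Dixon's critical value in 10 of 62 checks of named contigs, where chance flags about 1 in 20. The members were chosen for uneven counts, so nothing is read from that number. All values are CPM. These contigs were high in 1 library: Cyp2a5 (430536) at 4.33 in low-low 3, 997043 at 2.30 and Trav9d-1 (2911950) at 2.30 in low-low 4, and 3521417 at 3.88 in standard-low 2. Standard-low 4 was the high library for 2878450 at 13.9, 1785408 at 10.4 and 2249207 at 7.01. In low-low 4, 1785408 was at 0.154, from 2 reads against 0 in the other low-low libraries. Low values that stood apart were Cdc42bpa (1456165) at 0.230 in low-low 4 and 3816783 at 0 in low-low 3.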

How the results depend on the processing

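The number of members depends on its limits. It was 96 and 632 with a low limit of 1 and 5 counts, 30 with a high limit of 50, 140 with counts scaled to equal depth, and 150 to 188 without single libraries. The members low in exactly 1 library then numbered 56, 497, 9 and 87, and 88 (without standard-low 2) to 143. Members above 3 counts in 1 library alone were 1, 5, 3 and 1, and 0 (without standard-low 4) to 4. Members that follow the groups were 2 with a tandem limit of 60%, 6 with the repeat share taken over the contig length, and 0 to 0 without single libraries.

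Of 147 contigs and 18 members called by edgeR, a filter at a mean of 20 counts left 81 and 4, limma voom 50 and 2, and DESeq2 32 and 1. Leaving out 1 library gave 68 (low-low 2) to 207 contigs and 5 (standard-low 4) to 26 members, with 9 members without low-low 2 and 97 contigs without standard-low 4. With the replicate number as a block, 206 contigs and 26 members were called. Deviations of same-numbered libraries correlated at 0.0130, 0.0313, 0.0273 and -0.00953. Still, 5 of 8 libraries correlated best with their own number, more than an even spread would give. Whether same-numbered libraries form pairs cannot be told from these values, and the main fit left the numbers out. None of the recomputed results reversed direction. At these counts, a library with 3 reads cannot be told from one with several more.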

Other observations

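Some members inside genes lay outside the rule for named contigs and were chosen after their values were seen. Gabrg3, a subunit of the GABA-A receptor, held contig 4031643, with low-low counts of 18, 9, 17 and 8 and standard-low counts of 33, 2, 2 and 3. Its low libraries were 3 of the standard-low group, and standard-low 1 was the highest of all 8. Chd7, a chromatin remodeller, held 2449445, with 30, 16, 19 and 24 and then 14, 2, 10 and 14 counts. Irf9, a transcription factor of the interferon response, held 2116462, with 24, 15, 22 and 15 and then 14, 2, 34 and 13. Both were low in standard-low 2 alone. In the mitochondrial 16S ribosomal RNA gene mt-Rnr2, contig 431281 had 10, 11, 3 and 11 and then 13, 2, 12 and 32 counts, and its 15 neighbours were at 0.597 in the low libraries relative to the others.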
